A study of Mus musculus with 6 samples.

Results

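The genes described here belong to the p53 pathway and the DNA damage response. They were listed by name, 41 in all, and each was represented by the brightest probe set (by mean log2 signal) of those paired with its symbol alone. Of the 41, 39 were measured among 18193 genes, and Trp53 and Gdf15 were not analysed here. The samples were mouse fetal liver cells positive for Ter119, an antigen on the surface of maturing red cell precursors, taken at embryonic day 14.5. There were 3 wild type and 3 STAT5 knockout (KO) pools of 3 to 5 embryos of 1 genotype, each hybridised to 1 Affymetrix mouse expression array. The labels name the second genotype only as STAT5 KO, and the sources used here do not give the alleles, strain or any Cre line. No agent was applied, and both groups share the stage, the organ and the Ter119 isolation.

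p53 is a transcription factor that is held at a low level by the ubiquitin ligase MDM2 and its relative MDM4. The kinases ATM and ATR sense broken or stalled DNA and act, with CHK2 and CHK1, on p53 and on the cell cycle. Released p53 switches on genes of cell cycle arrest, stress adaptation, DNA repair and cell death, and also Mdm2, which closes a feedback loop. In red cell precursors p53 activity is known from anaemias in which ribosome assembly is disturbed. The comparison asks which of these transcripts differ when STAT5, the factor that the erythropoietin receptor activates, is missing.

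Each difference is the knockout mean less the wild type mean on the log2 scale, and its standard error (SE) comes from limma fitted with no mean-variance trend. Signals are the deposited linear intensities, listed as replicates 1, 2 and 3. A signal of 162.5 is called the control level, since 95% of the values of 27 probe sets for bacterial control transcripts, over all 6 arrays, lay below it. Median signals of the arrays ran from 175.6 to 215.8, and 42.4% to 48.0% of probe sets of an array lay under the control level. Groups of 3 arrays limit the precision, and an exact two-sided permutation test of 3 against 3 cannot go below p = 0.1. The targeted genes were lower in every knockout array than in any wild type array, Stat5a by at least 2.29-fold and Stat5b by 2.45-fold. The sources used here do not say whether these probe sets lie in the deleted parts. Of 16 measured erythroid markers, Klf1, Slc4a1 and Alas2 among them, 16 exceeded the control level in 1 genotype or both. So did 17 of 17 hepatocyte markers and 12442 of the 18193 genes. Passing that level therefore cannot show that the cells are of the labelled type. On the deposited scale 15 of the 16 were lower in knockout pools, as were 10570 of the 18193 genes. The median was -0.22, beside -0.08 over all genes. Groups did not overlap for 5 markers, all lower (31.2%, against 16.9% of all genes, 9.85% lower), but none was called. After median centring 13 of the 16 were lower, with a median of -0.10, beside 0.03 over all genes. Fewer cells of a type and less RNA per cell cannot be told apart in such pools.

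Trp53inp1 was higher and Cd82 lower in knockout pools, and no other p53 pathway member passed a test after adjustment. Two-sided limma with Benjamini-Hochberg adjustment over all genes called 0 of the 39 members at an adjusted p of 0.05, where it called 0.044% of all genes. At an unadjusted p under 0.05 it found 2 members, against 8.9% of all genes. With a mean-variance trend, which allows dim probe sets a larger spread, limma called 2 members, where it called 0.44% of all genes. These were Trp53inp1, at 2.16-fold higher, and Cd82, at 2.41-fold lower. At an unadjusted p under 0.05 the fit with the trend found 5 members, against 11% of all genes. Trp53inp1 and Cd82 alone met the submitters' criterion of an unadjusted p under 0.05 and over 1.5-fold (the methods' t-test), met by 4.81% of all genes. In 7 members, 3 higher and 4 lower, the knockout and wild type arrays did not overlap. That is 17.9% of the members, near the 16.9% of all genes (7.02% higher and 9.85% lower). After median centring 4 members were higher and 3 lower, beside 9.02% and 6.63% of all genes. Differences of 32 members (82.1%) were under 0.5 in size, against 70.9% of all genes. These shares are not matched for brightness. Of the 39 members 34 exceeded the control level in either genotype, as did 12442 of the 18193 genes, and dim probe sets can spread more. With dim probe sets left out, 6 of 33 members had no overlap, against 19.9% of all genes. For 22 members the 95% interval of the difference lay within a 2-fold change in either direction. For the other 17 it did not. These include Trp53inp1 and Cd82, whose intervals leave out 0.

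The median difference of the members was 0.09, beside -0.08 over all genes, and 23 of 39 lay above 0 (59.0%, against 41.9% of all genes). The median shifts with the scaling of the arrays. After median centring it was 0.21, beside 0.03 for all genes, with 27 members above 0. With dim probe sets left out it was 0.09 over 33 members, beside -0.04 over 11481 genes. Without wild type replicate 2 it was 0.017, with 20 members above 0.

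**Figure D1:**
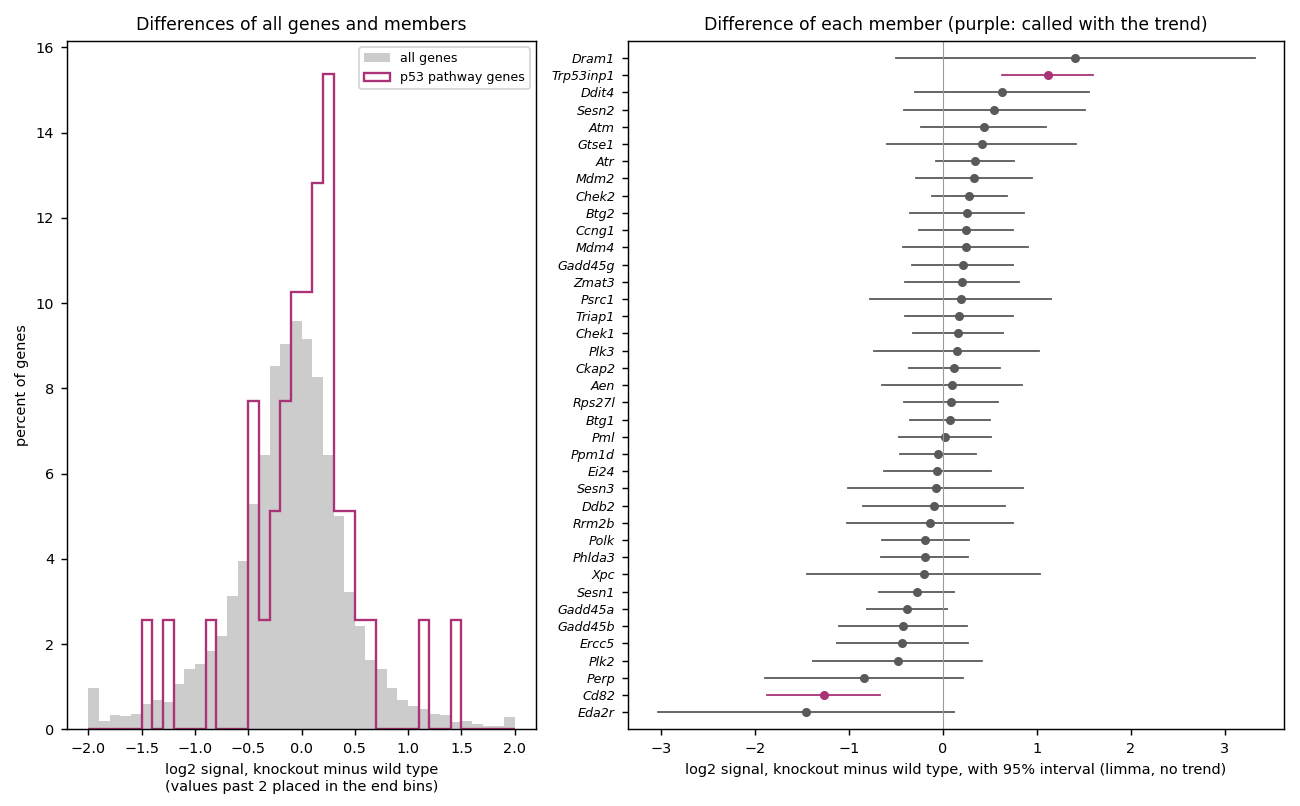
Left, percent of genes (y axis) by log2 signal in knockout minus wild type (x axis) for all 18193 genes (grey) and the 39 p53 pathway genes (purple outline). Right, the difference of each member as a point with its 95% interval from limma without a trend, where Trp53inp1 and Cd82, called in the fit with the trend, are purple and have intervals away from 0.

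Promoter sequences of the members were also searched for letters of the p53 motif, apart from the arrays. The p53 half-site consensus, which reads the same on both strands, was searched in windows from 250 bases before to 50 bases after RefSeq transcript starts of GRCm38.p6. Of the 39 measured members 33 had such a window, and 12 of these (36.4%) held a match, against 8.59% of the 14452 tested genes with a window. The members were listed as genes of the p53 pathway, so a larger share among them is no independent result. Each match is a single half-site, and full p53 sites were not searched. The 12 were Aen, Ccng1, Ckap2, Ei24, Gadd45a, Gtse1, Mdm2, Pml, Polk, Ppm1d, Rps27l and Sesn1. None of them was called by limma, with or without the trend. The matches of 4 well-known p53 targets are shown with 25 bases on either side, because their transcripts lay on both sides of 0. Capitals mark the match.
Mdm2: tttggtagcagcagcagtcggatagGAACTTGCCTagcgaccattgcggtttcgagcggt
Ccng1: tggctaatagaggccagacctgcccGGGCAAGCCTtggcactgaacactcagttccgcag
Sesn1: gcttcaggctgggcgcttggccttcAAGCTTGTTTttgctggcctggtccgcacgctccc
Gadd45a: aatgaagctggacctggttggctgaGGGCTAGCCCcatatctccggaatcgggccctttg
These stretches lie at chr10:117710910-117710969 (minus strand), chr11:40755437-40755496 (minus strand), chr10:41887241-41887300 (plus strand) and chr6:67037413-67037472 (minus strand). The matches begin 186, 185, 173 and 40 bases before the start, upstream of the transcript in each case. The motif TTCNNNGAA, to which STAT5 binds and which also reads the same on both strands, was found in the windows of 2 of the 33 members (6.06%), Cd82 and Polk, against 8.57% of tested genes with a window. In Cd82 it stood in 1 of the 4 windows, just after the most internal of the starts and so inside that transcript.
Cd82: gcctgtctccTTCTGGGAAcaagggctct
That stretch lies at chr2:93452653-93452681 on the minus strand. A match is a description of the letters and no evidence that either factor binds there.

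At the core of the pathway, the 3 measured regulators of p53 did not pass any test. Mdm2, the ligase that p53 itself induces, had signals of 1276, 1276 and 2020 in wild type and 1642, 1943 and 2054 in knockout pools. The groups overlapped through wild type replicate 3, and the difference was 0.33 (SE 0.25, 95% interval -0.28 to 0.95). Its other probe sets gave 0.01 and, at a dim one whose knockout mean lay under the control level and whose groups did not overlap, -1.19, so the direction of Mdm2 turns with the probe set. Mdm4, which binds p53 and blocks its activity, differed by 0.24 (SE 0.27). Ppm1d, a p53-induced phosphatase that switches the damage signal off again, differed by -0.05 (SE 0.16), with an interval of -0.45 to 0.35.

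The 4 damage kinases all lay above 0 under each of the 3 scalings (as deposited, quantile normalized or median centred), but none was called. Chek2, the kinase that ATM activates, had signals of 2159, 2084 and 2208 in wild type and 2514, 2811 and 2526 in knockout pools. The groups did not overlap, and the difference was 0.28 (SE 0.16, adjusted p = 0.637 in limma and 0.443 with the trend). Atr, the kinase of stalled replication forks, had 416.5, 415.1 and 356.9 in wild type and 514.4, 478.7 and 505.6 in knockout pools. Its groups did not overlap either, and it differed by 0.34 (SE 0.17, adjusted p = 0.598, or 0.582 with the trend). Atm, the kinase of double-strand breaks, differed by 0.43 (SE 0.27), with wild type replicate 3 lowest at 249.0. Its second probe set read 211.6, 239.6 and 39.9 in wild type and 363.8, 335.1 and 320.1 in knockout pools, without overlap and again lowest in wild type replicate 3. Chek1, the partner of ATR, showed a difference of 0.16 (SE 0.19) at the brightest of its probe sets. Of its other probe sets, 2 lay under the control level in both genotypes, and the rest gave 0.44 without overlap and -0.31 with overlap.

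Among targets of stress adaptation and arrest, Trp53inp1 stood apart. It encodes a stress-induced protein that cooperates with p53 and takes part in autophagy. Its signals were 414.4, 365.3 and 471.2 in wild type and 784.1, 910.2 and 1013 in knockout pools, so that every knockout array lay above every wild type array. It rose by 1.11 (SE 0.20, 2.16-fold; adjusted p = 0.0478 in limma with the trend, 0.284 without). The second probe set was dimmer, with 190.5, 272.5 and 252.8 against 320.8, 282.3 and 357.7. It differed in the same direction by 0.43 (SE 0.24), also without overlap. The call is close to the threshold: it ended in each of the 6 fits without 1 array (adjusted p between 0.0548 and 0.246) and held in 3 of 15 alternatives. Without 1 array the difference itself stayed between 1.02 and 1.21.

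The sestrins, which restrain the growth kinase mTORC1 under stress, did not move together. Sesn1, the p53-inducible family member, had 2572, 2826 and 2597 in wild type and 2235, 2236 and 2112 in knockout pools. The groups did not overlap, and it differed by -0.28 (SE 0.16, adjusted p = 0.636, or 0.440 with the trend). A second bright probe set of Sesn1 gave 1968, 2223 and 2360 against 1509, 1526 and 1516, a difference of -0.52 without overlap. The other 2 gave -0.32 and 0.06, both with overlap. Sesn2, which also responds to amino acid shortage, differed by 0.55 (SE 0.39), with wild type replicate 3 at 497.9 inside the knockout range. Its second probe set read 198.2, 323.5 and 309.1 against 334.4, 400.5 and 345.3, a difference of 0.41 (SE 0.27) without overlap. Sesn3, a target of FOXO factors, differed by -0.07 (SE 0.38). Its second probe set was dim, with 222.0, 204.4 and 259.7 against 39.7, 212.4 and 168.9, overlapping groups and a knockout mean under the control level. Ddit4, an mTORC1 inhibitor induced by hypoxia as well as by p53, had 348.3, 283.7 and 267.1 in wild type and 263.8, 596.2 and 622.2 in knockout pools. Its knockout replicates 2 and 3 were high and replicate 1 was the lowest of all 6 arrays, so that the difference of 0.63 (SE 0.38) lay within the spread.

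The Gadd45 genes encode small stress sensors that bind PCNA and upstream MAP kinases. Gadd45a, the classical p53 target of the 3, was bright, with 9824, 9614 and 9419 in wild type and 6664, 8338 and 7287 in knockout pools. All knockout arrays lay below all wild type arrays, and the difference was -0.38 (SE 0.17, adjusted p = 0.581, or 0.317 with the trend). The brightest probe set of Gadd45b gave -0.43 (SE 0.28), and another gave 0.28. At the last, higher in knockout without overlap, the signals were 66.7, 42.2 and 10.1 in wild type, all under the control level, and 188.8, 185.1 and 195.2 in knockout pools, just over it. Gadd45b therefore has no settled direction. Gadd45g differed by 0.21 (SE 0.22).

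The brightest probe set of Ccng1, which encodes the p53-induced cyclin G1, gave 0.25 (SE 0.20) with overlapping groups. At the other 2 probe sets the groups did not overlap. One gave 529.0, 621.9 and 599.2 against 953.7, 927.3 and 782.4, a difference of 0.60 (SE 0.21), and the other a difference of 0.47 (SE 0.27). Btg2, an antiproliferative gene that p53 and growth signals both induce, differed by 0.26 (SE 0.25) with overlap. Its second probe set had 5125, 6037 and 6522 in wild type and 8233, 9755 and 7852 in knockout pools, a difference of 0.55 (SE 0.22) without overlap. Thus for Ccng1 and Btg2 the probe set that the rule chose showed the smaller difference. Over all 82 probe sets of the members, 19 had no overlap, 12 higher and 7 lower (23.2%, against 15.8% of all probe sets, 6.84% higher and 8.95% lower). In the fit over all probe sets with the trend 2 of the 82 passed, both of Cd82, where 0.155% of all did.

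Of the remaining genes in this group, Btg1 differed by 0.08 (SE 0.17), Pml by 0.02 (SE 0.20) and Phlda3, an inhibitor of AKT, by -0.20 (SE 0.19). Plk2 differed by -0.48 (SE 0.37), and Plk3 lay under the control level in both genotypes. Several genes of this group also answer to cell isolation. The list of 20 transcripts of handling and stress, with Fos, Ier2 and Hspa1a, had 16 members above 0 (80%, against 41.9% of all genes) and a median of 0.35. Groups did not overlap for 6 higher and 2 lower genes of it (40%, against 16.9% of all genes). The list held differences from -2.83 to 2.28 and 2 genes called with the trend, 1 higher and 1 lower (0.44% of all genes were called). Its summed signal was 57078 to 67096 in wild type and 72181 to 86632 in knockout pools. Its part in the differences of Btg2, Ddit4, Trp53inp1 and the Gadd45 genes was not tested.

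**Figure D2:**
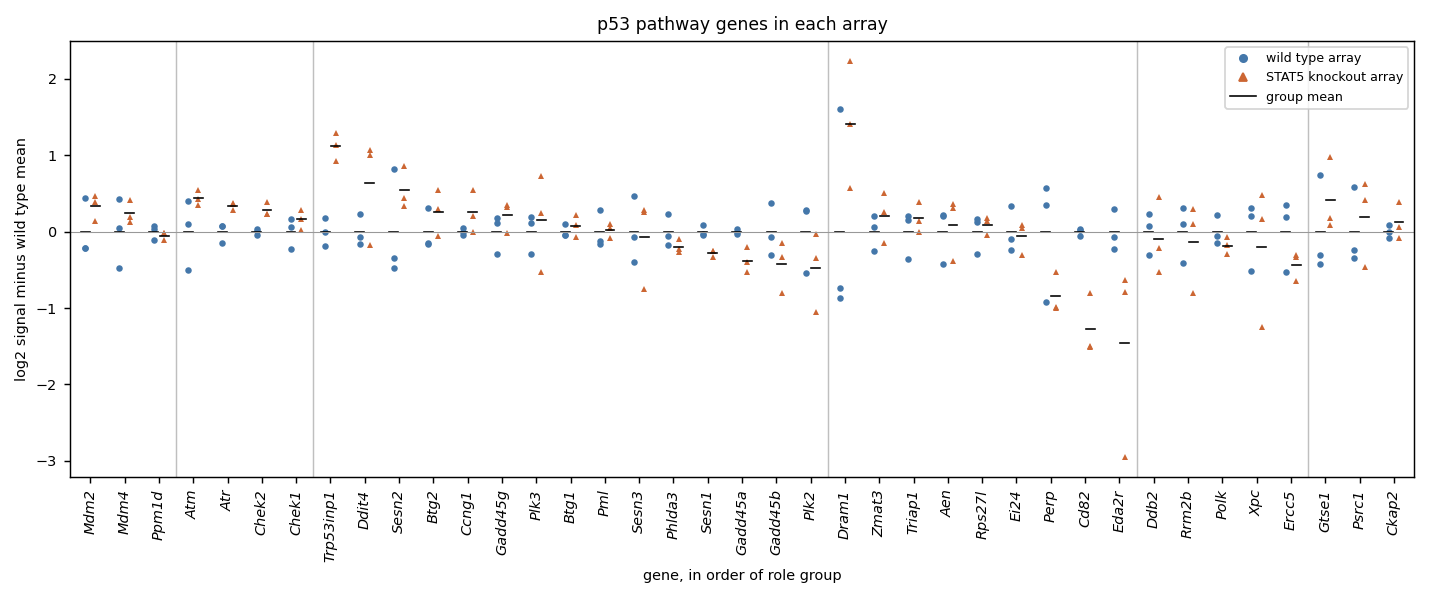
Log2 signal of each array minus the wild type mean (y axis) for the 39 members (x axis), in the order of core, damage kinases, stress adaptation, cell death, repair, and mitosis, split by grey lines. Circles are the 3 wild type arrays, triangles the 3 STAT5 knockout arrays and bars the group means. Trp53inp1 and Cd82 show groups far apart, and most other genes overlap.

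Among genes grouped with cell death, Cd82 was lower in knockout pools. It encodes a tetraspanin of the cell surface, described as a p53-responsive metastasis suppressor in human cells. Its signals were 14459, 14625 and 13767 in wild type and 5061, 8178 and 5022 in knockout pools. The groups did not overlap, and knockout replicate 2 was the nearest to wild type. Cd82 fell by 1.27 on the log2 scale (SE 0.25, 2.41-fold; adjusted p = 0.0268 in limma with the trend, 0.303 without). The second probe set read 2790, 3007 and 2394 against 756.8, 1267 and 582.0, a difference of -1.72 (SE 0.34), again without overlap. The call held in 9 of 15 alternatives. It ended after median centring (adjusted p = 0.0706) and in 5 of 6 fits without 1 array (between 0.0588 and 0.131), and held without knockout replicate 2 (0.00718, difference -1.50). Over all 15 alternatives the difference stayed between -1.50 and -1.15.

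Cd82 is also expressed outside the red cell lineage. Markers of hepatocytes were lower in knockout pools for 17 of 17 genes measured, with a summed signal of 174332 to 300687 in wild type and 150703 to 165354 in knockout pools. Endothelial markers were lower for 12 of 15 (4165 to 6986 against 3697 to 4242), while macrophage markers were higher for 9 of 13 (21820 to 34591 against 28580 to 39176). Megakaryocyte markers were lower for 5 of 7, with 4030 to 14667 in wild type and 4497 to 5862 in knockout pools. Beside these counts, 41.9% of all genes lay above 0. Of the markers of these 4 cell types, Pecam1, Tek, Tie1, Flt1, Vwf, Cd163 and Itgb3 lay under the control level in both genotypes. The summed signal of the 16 erythroid markers was 424246 to 431443 in wild type and 343172, 426415 and 353468 in knockout replicates 1, 2 and 3. Of 11 markers of immature progenitors, 5 were higher without overlap (45.5%, against 16.9% of all genes). These were Kit, Myb, Myc, Cd44 and Spi1, none of them called. The other 6 lay below 0, and the median of the list was -0.03. The summed signal of this list was 6283 to 8492 in wild type and 9329 to 11427 in knockout pools. The part of these cells, or of the stage of the red cell precursors, in the difference of Cd82 was not tested. Within wild type the hepatocyte sum was highest in replicate 2 and lowest in replicate 3.

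No other death-related gene passed a test. Perp, a membrane protein of p53-dependent apoptosis, had 308.6, 362.7 and 128.8 in wild type and 169.4, 121.3 and 122.7 in knockout pools. The groups overlapped and the knockout mean lay under the control level, so its fold is given as a bound on the means, at least 1.48-fold lower in knockout. Wild type replicate 3 lay under that level too. The 95% interval of the difference, -1.89 to 0.21, included 0, and Perp was not called. Eda2r, a p53-induced receptor of the TNF receptor superfamily, lay under the control level in both genotypes, as did Zmat3 and Dram1, and no fold is given for these. Aen, a nuclease of apoptosis, differed by 0.09 (SE 0.30), and Ei24 by -0.06 (SE 0.23). Triap1, an inhibitor of apoptosis, differed by 0.17 (SE 0.23). Rps27l, a ribosomal protein paralog that p53 induces, was bright and differed by 0.09 (SE 0.20, 95% interval -0.41 to 0.59). Its probe set has a name ending in _x_at, which marks probes shared with similar transcripts.

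The 5 genes of repair and nucleotide supply lay below 0, with a median of -0.19, but none passed and all had overlapping groups. After median centring 1 of the 5 lay above 0. Ercc5, an endonuclease of nucleotide excision repair, differed by -0.43 (SE 0.29). Polk, a translesion polymerase, differed by -0.19 (SE 0.19), and its other probe set by 0.39. Rrm2b, the p53-induced subunit of ribonucleotide reductase, differed by -0.14 (SE 0.36), and Ddb2, which recognises UV lesions, by -0.10 (SE 0.31). Xpc, another lesion sensor, lay under the control level in both genotypes.

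The 3 genes of mitosis lay above 0 and varied more between replicates than between genotypes. Gtse1, which binds p53 in G2 phase, had 524.0, 481.6 and 1079 in wild type and 734.7, 685.1 and 1274 in knockout pools, with replicate 3 the highest in each genotype. The difference was 0.41 (SE 0.41). Psrc1, a spindle protein, had 721.6, 673.6 and 1274 against 1137, 617.8 and 1311, a difference of 0.19 (SE 0.39). Ckap2, a spindle-associated protein, differed by 0.12 (SE 0.20). The summed signal of 19 proliferation genes was 174146 to 232464 in wild type, with replicate 3 highest, and 200314 to 212686 in knockout pools.

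**Figure D3:**
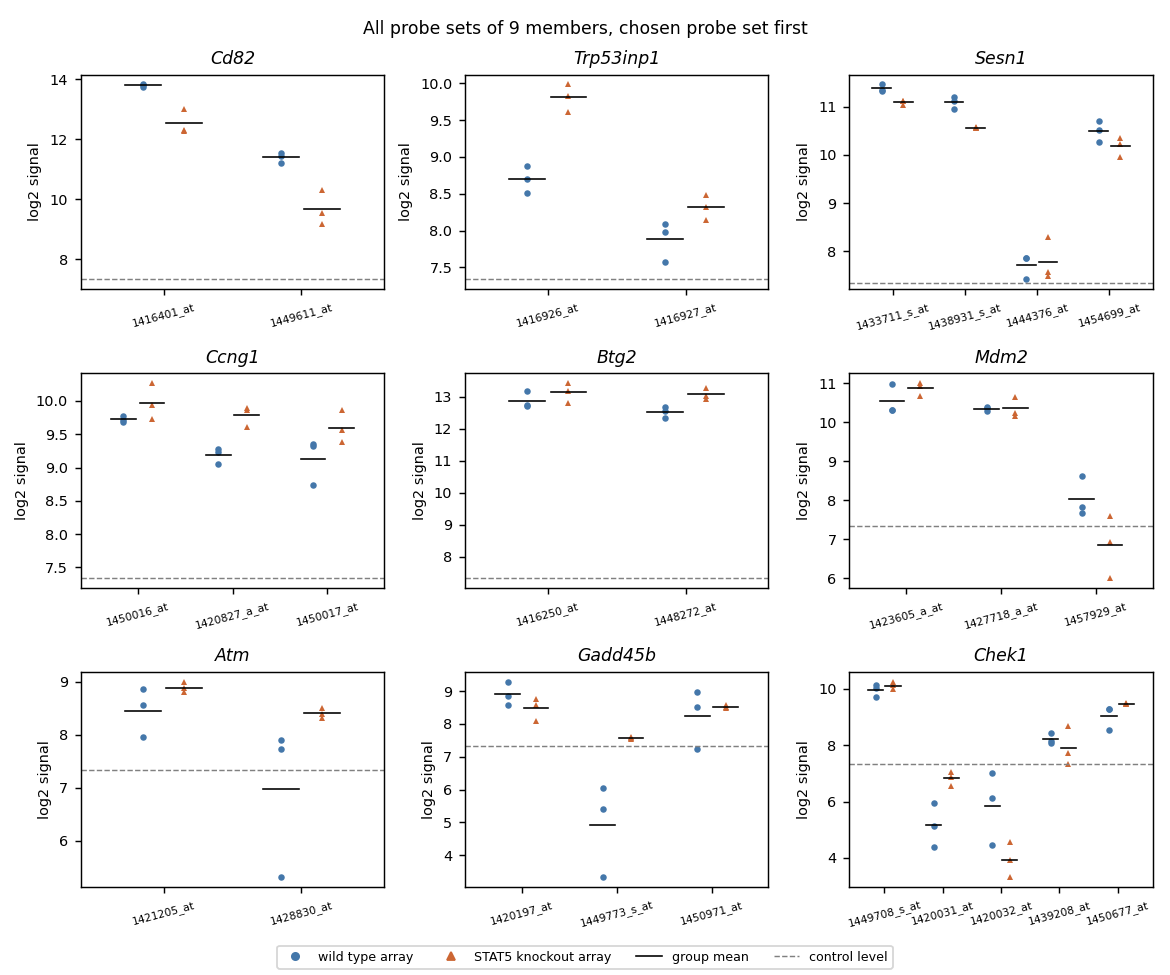
Log2 signal (y axis) at every probe set (x axis) of 9 members, the chosen one first, with circles for the 3 wild type arrays, triangles for the 3 knockout arrays, bars for group means and a dashed line at the control level. Both probe sets of Cd82 and of Trp53inp1 separate the groups in 1 direction, whereas those of Mdm2, Gadd45b and Chek1 give both directions.

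Other genes of the pathway were described from 3 further lists. Of 22 measured effectors of p53, none passed in either fit (2 at an unadjusted p under 0.05 in each), 12 lay above 0 (54.5%), and the median was 0.03. The groups did not overlap for 4 of the 22 (18.2%, against 16.9% of all genes). Bbc3, which encodes the pro-apoptotic protein PUMA, had signals of 709.3, 900.1 and 911.3 in wild type and 1325, 1430 and 1983 in knockout pools. Every knockout array lay above every wild type array. The difference was 0.90 (SE 0.23, 95% interval 0.32 to 1.47), but the adjusted p was 0.430 in limma and 0.101 with the trend. It passed in none of 15 alternatives with the trend, where the adjusted p ran from 0.0512 to 0.327. Cdkn1a, the p53 target that arrests the cell cycle, had 567.6, 316.4 and 387.5 against 374.1, 421.4 and 648.4, with overlapping groups and a difference of 0.18 (SE 0.32, 95% interval -0.60 to 0.97). Cycs, which encodes cytochrome c, differed by -0.41 (SE 0.16), without overlap at 3 of its 4 probe sets. Tigar, a p53-induced phosphatase that lowers glycolysis, differed by -0.45 (SE 0.20) without overlap.

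Of 17 measured regulators of p53, 2 passed in limma with the trend (0.44% of all genes did) and both were lower in knockout pools, Trp53bp1 and Hipk2. The median was 0.21, and 13 of the 17 lay above 0 (76.5%, against 41.9% of all genes). Groups did not overlap for 5, with 3 higher and 2 lower (29.4%, against 16.9% of all genes). Trp53bp1 encodes a p53-binding protein that gathers at double-strand breaks. It had 3020, 3807 and 3422 in wild type and 1553, 883.2 and 1023 in knockout pools, with no overlap. It fell by 1.60 on the log2 scale (SE 0.27, 3.04-fold; adjusted p = 0.0148 with the trend, 0.239 without). All 6 of its probe sets lay below 0, from -1.60 to -0.14, and 2 of them had no overlap. The call held in 11 of 15 alternatives and ended without wild type replicate 2 (adjusted p = 0.0626), without knockout replicate 3 (0.0667), with the mean of all probe sets (0.288, difference -0.72) and without _x_at, _s_at and _a_at probe sets (0.227).

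Hipk2, a kinase that phosphorylates p53, had 12302, 13450 and 11978 in wild type and 7226, 7859 and 6143 in knockout pools, without overlap. It fell by 0.84 on the log2 scale (SE 0.18, 1.78-fold; adjusted p = 0.0401 with the trend, 0.368 without). All 8 of its probe sets lay below 0, and 6 had no overlap. Its call held in 6 of 15 alternatives. It ended in all 6 fits without 1 array (adjusted p between 0.065 and 0.186), after median centring (0.139), with the mean of all probe sets (0.260, difference -0.54) and without _x_at, _s_at and _a_at probe sets (0.0561). Rchy1, a ubiquitin ligase for p53, had 1972, 1772 and 1955 against 3215, 2678 and 2604, a difference of 0.57 (SE 0.18; adjusted p = 0.514, or 0.143 with the trend). Crebbp, an acetyltransferase, differed by 0.24 (SE 0.19) and Daxx by 0.21 (SE 0.17), both without overlap.

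Of 36 measured genes of damage signalling and repair, 27 lay above 0 (41.9% of all genes did) with a median of 0.24, but none passed in either fit. At an unadjusted p under 0.05 there were 2 in limma and 4 with the trend, where 8.9% and 11% of all genes were found. Wild type replicate 2 was the lowest array for this list, and without it 20 of 36 lay above 0. Groups did not overlap for 5 (13.9%, against 16.9% of all genes). Rad17, a loader of the checkpoint clamp, had 896.3, 884.9 and 860.1 against 1287, 1315 and 1127, a difference of 0.49 (SE 0.17). Rad9a, part of that clamp, differed by 0.53 (SE 0.24), and Rad50, of the complex that binds broken ends, by 0.42 (SE 0.17). Ercc2, a helicase of excision repair, differed by -0.46 (SE 0.22).

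**Figure D4:**
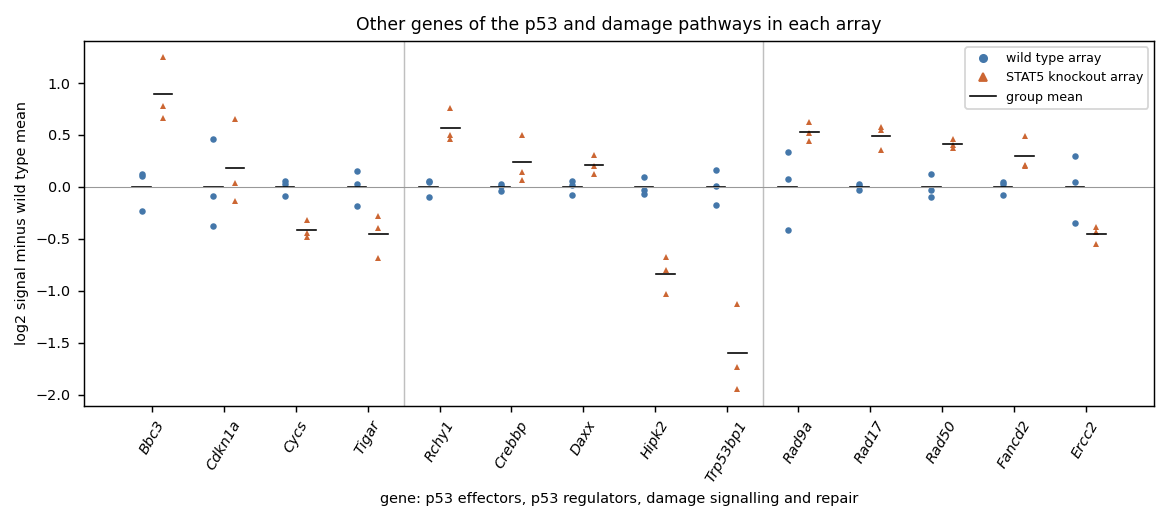
Log2 signal of each array minus the wild type mean (y axis) for other genes of the pathway whose groups do not overlap and whose brighter group lies above the control level, and for Cdkn1a (x axis), with grey lines between p53 effectors, p53 regulators, and damage signalling and repair. Circles are wild type arrays, triangles knockout arrays and bars group means. Trp53bp1 and Hipk2 lie far below the wild type arrays, Bbc3 lies above them, and Cdkn1a overlaps.

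The lists differed in how far the arrays of the genotypes lay apart. The median deviation of the p53 pathway members from the wild type mean was between -0.057 and 0.058 in wild type arrays and between -0.002 and 0.122 in knockout arrays, so the groups overlapped. For the p53 effectors it ran from -0.015 to 0.070 and from -0.003 to 0.162, again with overlap. For the p53 regulators it ran from -0.149 to 0.035 in wild type and from 0.121 to 0.309 in knockout arrays, without overlap. The summed signal of the regulators did overlap, at 65037 to 72347 in wild type and 65700 to 75698 in knockout pools. The 2 regulators called with the trend, Trp53bp1 and Hipk2, were lower in knockout pools. For damage signalling and repair the median deviation ran from -0.295 to 0.204 and from 0.149 to 0.275, with overlap. That of the hepatocyte list ran from -0.508 to 0.519 in wild type and from -0.765 to -0.540 in knockout arrays. Wild type replicate 3, at -0.508, lay close to the knockout arrays. That of the handling list ran from -0.198 to 0.114 in wild type and from 0.201 to 0.511 in knockout arrays.

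**Figure D5:**
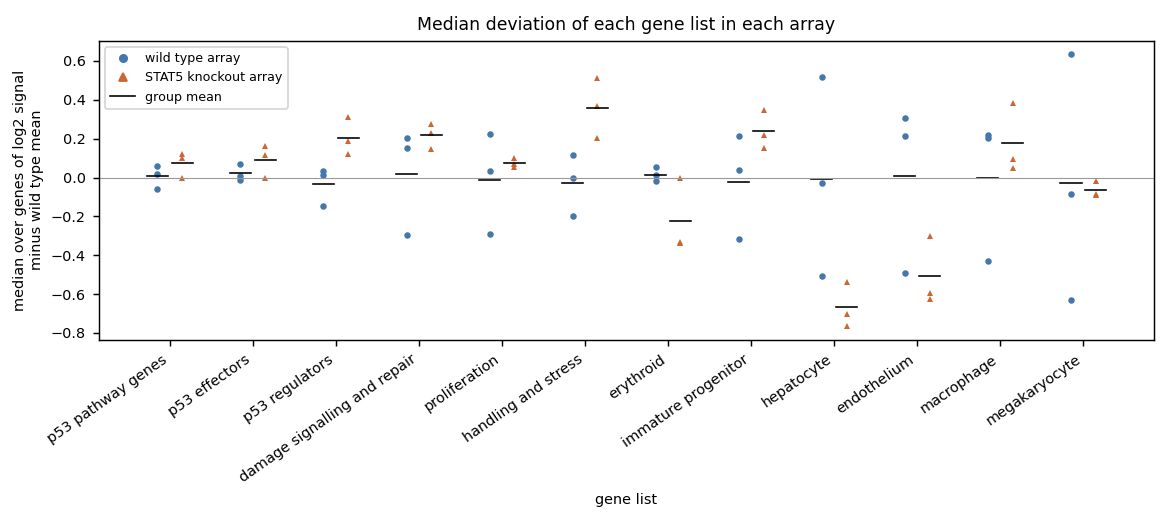
Median over the genes of a list of log2 signal minus the wild type mean (y axis), for 12 gene lists (x axis), with circles for the 3 wild type arrays, triangles for the 3 knockout arrays and bars for group means. The median of the p53 pathway genes lies between -0.057 and 0.122 in all 6 arrays. The median of the p53 regulators is higher in every knockout array, though not every gene of that list is. The median of handling transcripts is higher and that of hepatocyte markers lower in knockout arrays.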

How the data were processed

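The deposited table holds 1 linear intensity per probe set and array, made with RMA and Partek per the submitters' processing notes, without versions. The arrays share a trimmed mean of 500 (2% trimmed from either side), while their medians differ, from 175.6 to 215.8. Single signals are as low as 0.9, at a probe set of Rrm2b in wild type replicate 1. With such values it is uncertain whether the named RMA step gave the deposited scale. The sources used here do not give how the arrays were scaled. Analyses used log2 of the deposited intensities without a pseudocount. GEO's platform annotation paired 34945 of 45037 probe sets (64 controls aside) with 1 symbol, 932 with several and 9160 with none, and only the first were used. RefSeq (GRCm38.p6) matched 34741 of them. limma 3.58.1 in R 4.3.3 (lmFit and eBayes, with and without a trend) tested all 18193 genes, and adjusted p-values (Benjamini-Hochberg) under 0.05 were called. Replicates are separate pools of embryos. Scripts were tested on simulated data. Members and lists were chosen with earlier results of these data known.

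Values per array are given for called members, for Mdm2 and for members above the control level whose groups do not overlap. From each further list up to 4 genes without overlap are named, largest difference first, and Cdkn1a. Daxx, second probe sets and per-array values of other genes were chosen after their values were seen. A fold against a mean under the control level is a bound, with dim values raised to that level. Alternatives were robust estimation with the trend, quantile normalization, median centring, adding 32, leaving out the 50% dimmest probe sets, array weights, a block for the replicate number, the mean of all probe sets, leaving out _x_at, _s_at and _a_at probe sets, and leaving out each array.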

Additional observations from a re-analysis of the deposited data

How the results depend on the processing

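Limma without the trend called 0 members in 14 of the 15 alternatives, and 2 with robust estimation and the trend. Its count over all genes, 8, was 66 with the trend and robust estimation together (80 with the trend alone), 15 after quantile normalization and with array weights, 20 without dim probe sets, 3 after median centring and without _x_at, _s_at and _a_at probe sets, and 0 without any 1 array. With the trend, the count of 2 members was 1 after quantile normalization, with 32 added, with the mean of all probe sets, without _x_at, _s_at and _a_at probe sets and with the replicate block, 0 after median centring, and 0 to 1 without 1 array. The count of 80 over all genes with the trend was 42 after median centring, 151 with array weights, 36 with the mean of all probe sets, 43 without _x_at, _s_at and _a_at probe sets and 9 to 75 without 1 array. The replicate block moved it to 75, and the count without the trend to 0. Same-numbered pools had correlations of 0.023, 0.0414 and 0.0372 over all genes, each the highest of its pools, which is a hint from the data and not the design, so the numbers were not taken as pairs. The submitters' criterion gave 2 to 6 members without 1 array and 0 after Benjamini-Hochberg adjustment. Members without overlap numbered 9 to 18 without 1 array, where 25.3% to 34.1% of all genes had none, since fewer arrays overlap less easily. The median of the members was 0.206 after median centring and 0.0169 to 0.166 without 1 array. Mdm2 turned to -0.284 with the mean of all probe sets and to -1.19 without _x_at, _s_at and _a_at probe sets, where another probe set stands for it. Of the 10 genes recomputed in these alternatives no other changed direction. Signals under the control level limit Eda2r, Zmat3, Dram1, Plk3 and Xpc, for which no fold is given.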
